A study of Mus musculus with 24 samples.

Results

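The phagocyte NADPH oxidase is the enzyme with which macrophages make superoxide, and the superoxide dismutases are the enzymes that turn superoxide into hydrogen peroxide. The genes described are 7: Cybb, Cyba, Ncf1, Ncf4 and Rac2 of the oxidase, and the dismutases Sod1 and Sod2. They were chosen by gene symbol from a table of 54532 genes and other features, all 7 were found, and all 7 were among the 14692 genes that passed the low-count filter and were tested. Expression was measured by sequencing of polyA RNA from mouse peritoneal macrophages, in 24 libraries that form 6 groups of 4. The groups were LPS plus IFN-γ with ONX-0914 (M1+ONX), LPS plus IFN-γ alone (M1), IL4 with ONX-0914 (M2+ONX), IL4 alone (M2), ONX-0914 alone (M0+ONX) and untreated control cells (M0). ONX-0914 is a small-molecule inhibitor of the immunoproteasome, a proteasome variant of immune cells. Each library came from 50000 cells pooled from 2 to 3 mice, and the labels call the 4 replicates of a group independent. The sources used here do not give doses, treatment times, or the strain, sex and age of the mice.

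In a resting phagocyte the catalytic subunit of the oxidase sits in membranes with a small partner subunit, while the regulatory subunits wait in the cytosol. On stimulation the cytosolic subunits and a Rac GTPase move to the membrane, and the assembled enzyme passes electrons from NADPH to oxygen. Superoxide made there helps to kill microbes. SOD1 removes superoxide in the cytosol and SOD2 removes it in mitochondria, and Sod2 is a classical gene of inflammatory macrophages.

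Each library held between 18.2 and 22.9 times 1e6 counts. Levels are counts per 1e6 counts scaled by TMM (CPM). Adjusted p-values come from the quasi-likelihood test of edgeR, adjusted by the Benjamini-Hochberg method over all 14692 genes, and a gene was called under 0.05. M1 replicate 2 stood apart before any test. Mitochondrial genes took 0.3% of its counts, where they took 1.07% to 1.14% in the other M1 libraries, and its mean correlation with its group across genes was 0.9773, against 0.9859 to 0.9868. Where leaving it out changed the call or sign of a value given here, or moved a called one by over 1.5 times, the value without it is given too. All 9 macrophage markers were tested. Their summed level was 9824 to 10325 CPM in M1+ONX and 12419 to 15276 CPM in M1, 10775 to 12152 CPM in M2+ONX and 13337 to 14736 CPM in M2, and 11564 to 12896 CPM in M0+ONX and 13661 to 15884 CPM in M0. The sum was lower with ONX-0914 in each state without overlap, as were Cyba and Ncf4. Lyz2 carried most of it, with 6193 CPM in M1+ONX and 8588 CPM in M1, and 8336 CPM in M0+ONX and 10496 CPM in M0. Not all markers fell: mean Cd14 was higher with ONX-0914 in each state (267 CPM in M1+ONX, 221 CPM in M1), and mean Cd68 in M2 and M0. In M0 alone, mean Itgam (137 CPM in M0+ONX, 104 CPM in M0), Fcgr3 (465 and 431 CPM) and Adgre1 (188 and 186 CPM) were higher too. Besides Lyz2, the markers with a lower mean in M0+ONX than in M0 were Csf1r, Mertk and Tyrobp. The part of the sum in the results of the 7 genes was not tested. These are bulk samples, so a smaller number of cells of a type and less RNA per cell cannot be told apart.

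The promoters of 5 of the 7 genes were matched in RefSeq (GRCm38.p6), as windows of 250 bases before to 50 bases after the start site. The 4 printed here belong to the genes that moved most with polarization or with the inhibitor. Capitals mark letters that match a motif searched on both strands. Positions are counted from the RefSeq start site, and all sequences run 5′ to 3′ on the strand of the gene.
Cybb, chrX:9469275-9469574, minus strand: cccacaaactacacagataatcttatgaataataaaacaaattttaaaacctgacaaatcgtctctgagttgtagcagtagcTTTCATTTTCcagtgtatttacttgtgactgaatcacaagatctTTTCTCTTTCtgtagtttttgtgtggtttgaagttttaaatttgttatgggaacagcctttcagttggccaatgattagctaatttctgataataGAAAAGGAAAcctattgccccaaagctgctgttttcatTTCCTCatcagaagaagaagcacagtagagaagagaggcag
Ncf1, chr5:134229576-134229875, minus strand: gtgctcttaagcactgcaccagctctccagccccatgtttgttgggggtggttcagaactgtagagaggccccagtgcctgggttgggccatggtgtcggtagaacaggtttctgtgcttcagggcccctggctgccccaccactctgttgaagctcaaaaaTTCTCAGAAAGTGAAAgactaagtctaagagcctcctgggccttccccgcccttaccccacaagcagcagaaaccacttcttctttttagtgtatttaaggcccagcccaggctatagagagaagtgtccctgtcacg
Sod2, chr17:13007589-13007888, plus strand: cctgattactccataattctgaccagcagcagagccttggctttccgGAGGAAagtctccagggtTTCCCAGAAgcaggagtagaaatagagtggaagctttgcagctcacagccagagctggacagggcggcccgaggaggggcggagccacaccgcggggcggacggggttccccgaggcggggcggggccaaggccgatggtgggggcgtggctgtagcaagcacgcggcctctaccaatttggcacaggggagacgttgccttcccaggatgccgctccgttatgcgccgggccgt
Sod1, chr16:90220512-90220811, plus strand: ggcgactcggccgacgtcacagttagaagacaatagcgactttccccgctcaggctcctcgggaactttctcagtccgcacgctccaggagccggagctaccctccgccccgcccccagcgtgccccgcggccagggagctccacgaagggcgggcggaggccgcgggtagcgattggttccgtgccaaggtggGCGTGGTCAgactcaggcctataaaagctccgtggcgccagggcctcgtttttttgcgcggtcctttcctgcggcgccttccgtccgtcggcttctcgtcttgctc
The motifs were GAGGAA (PU.1 core, in 28.3% of 32851 promoter windows), TTCNNNGAA (gamma-activated sequence, 8.3%), GAAANNGAAA (interferon-stimulated response element, 3.44%), GGGNNNTTCC (kappaB site, 5.56%) and TGACNNNGC (antioxidant response element, 12.4%). The Cybb window held 3 matches to the interferon-stimulated response element, which start at -168, -124 and -29, and a PU.1 core at 10. In the Ncf1 window a gamma-activated sequence starts at -88 and overlaps an interferon-stimulated response element that starts at -82, so the 2 form 1 run of capitals. The Sod2 window held a PU.1 core at -203 and a gamma-activated sequence at -185, and the Sod1 window an antioxidant response element at -56. The Cyba window held none of the 5 motifs. A match is a description of letters. For Cybb, for Sod2 and, by a few bases only, for Sod1, the RefSeq start lies inside the span of the gene in the GENCODE annotation.

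**Figure D1:**
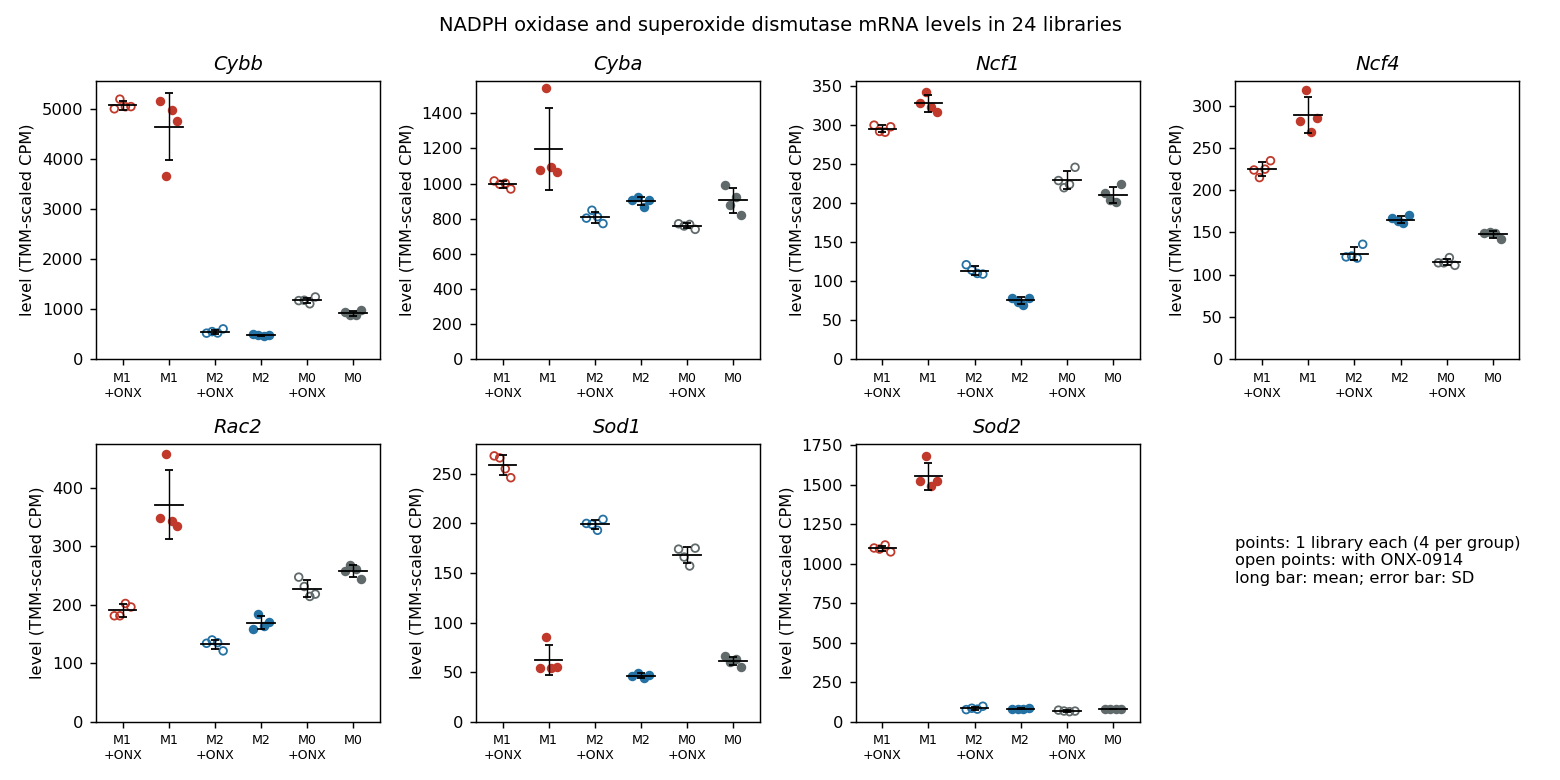
Level of each of the 7 genes in each library (TMM-scaled CPM, linear axes from 0), by group; points are libraries (4 per group, open with ONX-0914), long bars are means and error bars are SD. Cybb and Sod2 stand highest in both M1 groups (Sod2 1075 to 1679 CPM there, 63.6 to 98.1 CPM elsewhere), and Sod1 is highest in the 3 groups with ONX-0914 (157 to 268 CPM, against 43.9 to 85.1 CPM without).

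The catalytic subunit carried the widest range among the oxidase genes. Cybb (ENSMUSG00000015340, GRCm38 X:9435252-9487771, minus strand) encodes NOX2, the subunit that transfers the electrons. It had 5159.7, 3665, 4983 and 4765 CPM in M1 macrophages, against 934, 874, 871 and 974 CPM in M0 macrophages. The lowest M1 library was still far above the highest M0 library, and the level was 5.08-fold higher in M1 (log2 change 2.35, SE 0.077, adjusted p = 2.17e-20). M2 macrophages had 494, 479, 465 and 471 CPM, below every M0 library. The level in M2 was 0.523 times that in M0 (log2 change -0.94, SE 0.074, adjusted p = 6.72e-11).

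With ONX-0914, Cybb moved little. M0+ONX libraries had 1168, 1175, 1104 and 1241 CPM, all above the M0 libraries given above, a rise of 1.28-fold (log2 change 0.36, SE 0.074, adjusted p = 0.000722). M2+ONX libraries had 517, 548, 520.5 and 603 CPM, also above every M2 library (log2 change 0.2, SE 0.074, adjusted p = 0.0386). M1+ONX libraries had 5002, 5195, 5044 and 5046 CPM and overlapped with M1, with a log2 change of 0.13 (95% interval -0.03 to 0.28, adjusted p = 0.167). The M2 call is fragile: it was lost with DESeq2 size factors (log2 change 0.16, adjusted p = 0.0901) and without M2 replicates 2, 3 or 4 or M2+ONX replicates 2 or 4 (log2 change 0.15 to 0.21, adjusted p up to 0.156). Without M1 replicate 2, the lowest M1 library, the M1 change was 0.03 (adjusted p = 0.667). The difference of effects between M1 and M0 was -0.23 (SE 0.1, adjusted p = 0.123), and it was called without that library (-0.33, adjusted p = 0.000353) and with voom (-0.36, adjusted p = 8.55e-06).

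The membrane partner of NOX2 behaved unlike it. Cyba (ENSMUSG00000006519, 8:122424776-122432930, minus strand) encodes the small subunit that stabilizes NOX2. It had 1077, 1544, 1095 and 1068 CPM in M1, against 991, 880.3, 924 and 823 CPM in M0. The groups did not overlap, and the rise was 1.32-fold (log2 change 0.4, SE 0.08, adjusted p = 7.25e-05). Without M1 replicate 2, the library at 1544 CPM, the log2 change was 0.26 (adjusted p = 9.68e-06). M2 libraries had 906, 926, 867 and 906 CPM and overlapped with M0 (log2 change 0, 95% interval -0.17 to 0.16, adjusted p = 0.974).

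Cyba lay lower with the inhibitor in all 3 states, by small amounts. It had 1015, 996, 1002 and 969 CPM in M1+ONX, below every M1 library (log2 change -0.26, SE 0.08, adjusted p = 0.00843). M0+ONX libraries had 771, 758, 767 and 739 CPM, below every M0 library (log2 change -0.25, SE 0.08, adjusted p = 0.0241). M2+ONX libraries had 803, 848, 811 and 772 CPM, below every M2 library, but the test was not passed (log2 change -0.16, 95% interval -0.33 to 0.01, adjusted p = 0.132). The M1 change shrank to -0.12 without M1 replicate 2 (adjusted p = 0.0363) and was not called when the M1+ONX and M1 libraries were fitted alone (-0.17, adjusted p = 0.232). The M0 call was lost without M0 replicate 1 (adjusted p = 0.0977), M0 replicate 3 (0.0574) or M0+ONX replicate 4 (0.0626).

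The proportion of the messages of the 2 membrane subunits differed widely between groups. The ratio of Cyba to Cybb counts in a library was 0.196 ± 0.00541 in M1+ONX, 0.268 ± 0.102 in M1, 1.49 ± 0.136 in M2+ONX, 1.89 ± 0.0468 in M2, 0.649 ± 0.041 in M0+ONX and 0.993 ± 0.102 in M0 (SD, n = 4). The M1 libraries without replicate 2 lay between 0.209 and 0.224, and replicate 2 at 0.421. Per length of the principal transcript, Cyba had 1607 ± 313 RPKM in M1 and 1216 ± 95 RPKM in M0, and Cybb had 977 ± 141 RPKM in M1 and 192 ± 10.4 RPKM in M0 (SD, n = 4).

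**Figure D2:**
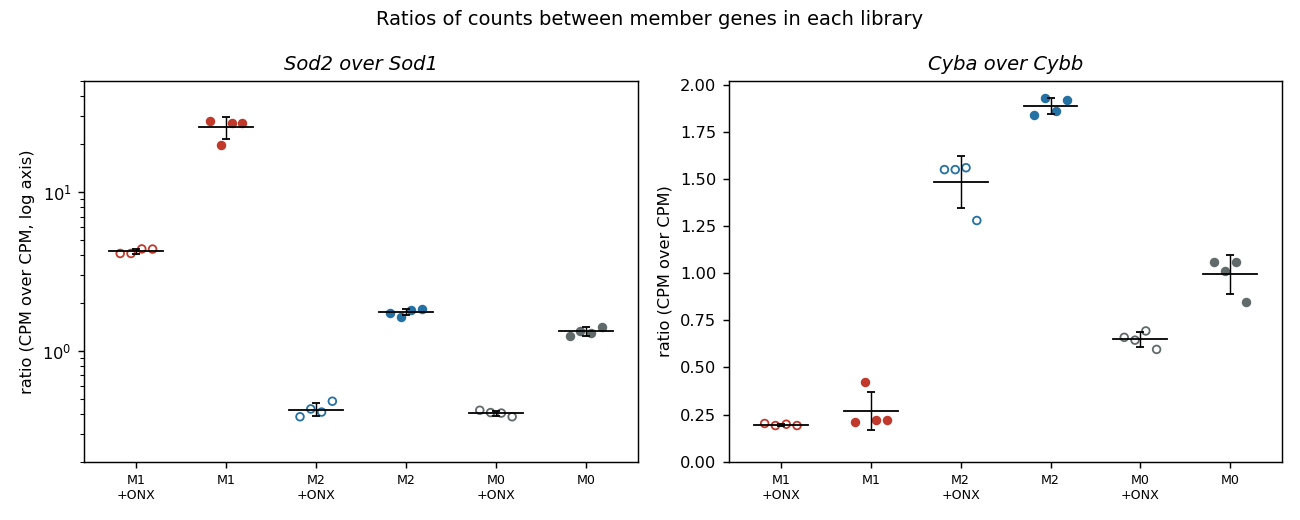
Ratio of Sod2 to Sod1 (left, log axis) and of Cyba to Cybb (right, linear axis from 0) in each library, CPM over CPM without length correction; points are libraries, open with ONX-0914, long bars are means and error bars SD (n = 4). The Sod2 to Sod1 ratio is lower with ONX-0914 in each state, 4.24 against 25.6 in M1, and M1 replicate 2 stands apart in both panels.

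Of the cytosolic subunits, Ncf1 changed in opposite directions in M1 and M2. Ncf1 (ENSMUSG00000015950, 5:134220053-134229625, minus strand) encodes the organizer that links the cytosolic subunits to the membrane. It had 329, 343, 323 and 317 CPM in M1, against 213, 204, 201 and 224 CPM in M0, a rise of 1.56-fold (log2 change 0.64, SE 0.052, adjusted p = 1.23e-11). In M2 it had 78.9, 73.6, 69.4 and 78.5 CPM, 0.357 times the level in M0 (log2 change -1.49, SE 0.053, adjusted p = 2.88e-18). No M1 or M2 library overlapped with M0, and the M1 level was 4.37-fold that of M2.

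The effect of ONX-0914 on Ncf1 depended on the state. Ncf1 had 121, 114, 109.8 and 109 CPM in M2+ONX, above every M2 library, a rise of 1.51-fold (log2 change 0.59, SE 0.053, adjusted p = 7.87e-10). In M1+ONX it had 300.1, 292, 291 and 298 CPM, below every M1 library (log2 change -0.15, SE 0.051, adjusted p = 0.0181). In M0+ONX it had 229, 219.8, 224 and 246 CPM, which overlapped with M0 (log2 change 0.13, adjusted p = 0.0832). The difference of effects between M1 and M2 was -0.74 (SE 0.074, adjusted p = 5.72e-08), that between M2 and M0 0.47 (adjusted p = 0.000163) and that between M1 and M0 -0.28 (adjusted p = 0.00713). This last difference was lost with no count filter (-0.25, adjusted p = 0.0683) and with the libraries of its 4 groups alone (-0.19, adjusted p = 0.0892). The M1 call was lost with no count filter (-0.13, adjusted p = 0.15) and with the M1+ONX and M1 libraries alone (-0.06, adjusted p = 0.391). Ncf1 shares 408 exon bases with Gtf2ird2 on the opposite strand, and the sources used here do not give the strand setting of the counting. Gtf2ird2 had 7.99 ± 0.564 CPM in M2+ONX and 7.91 ± 1.05 CPM in M2, where Ncf1 differed most with the inhibitor. It had 8.74 ± 1.52 CPM in M1+ONX and 9.58 ± 1.19 CPM in M1, and 11.6 ± 1.53 CPM in M0+ONX and 10.2 ± 1.39 CPM in M0. Its libraries overlapped in M1 and in M0, where its means moved in the same direction as those of Ncf1. The part of this overlap of genes in the Ncf1 results was not tested.

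Ncf4 rose in M1 and fell with the inhibitor in every state. Ncf4 (ENSMUSG00000071715, 15:78244801-78262580, plus strand) encodes the cytosolic subunit that binds a phosphoinositide of phagosome membranes. It had 282, 319, 269 and 286 CPM in M1, against 149, 151, 149 and 142 CPM in M0, a rise of 1.96-fold (log2 change 0.97, SE 0.052, adjusted p = 1.98e-15). M2 libraries had 167, 163, 161 and 170.3 CPM, above every M0 library by a small margin (log2 change 0.16, SE 0.052, adjusted p = 0.0154). That small rise was not called with no count filter (0.15, adjusted p = 0.0987) or with a filter of 1 CPM in 4 libraries (0.13, adjusted p = 0.0539).

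Every ONX-0914 group lay below its own group without inhibitor. Ncf4 had 224, 215, 225 and 235 CPM in M1+ONX (log2 change -0.36, SE 0.052, adjusted p = 2.07e-06). It had 121, 122, 119.6 and 136 CPM in M2+ONX (log2 change -0.41, SE 0.052, adjusted p = 4.92e-07). In M0+ONX it had 114, 114, 120.2 and 111 CPM (log2 change -0.36, SE 0.052, adjusted p = 9.16e-06). Within each state no library with inhibitor reached the lowest library without it. The levels were 22.2%, 24.7% and 22.3% lower in M1, M2 and M0. The differences of effects were 0 (95% interval -0.15 to 0.16) between M1 and M0, -0.04 (-0.2 to 0.11) between M2 and M0 and 0.05 (-0.11 to 0.2) between M1 and M2.

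**Figure D3:**
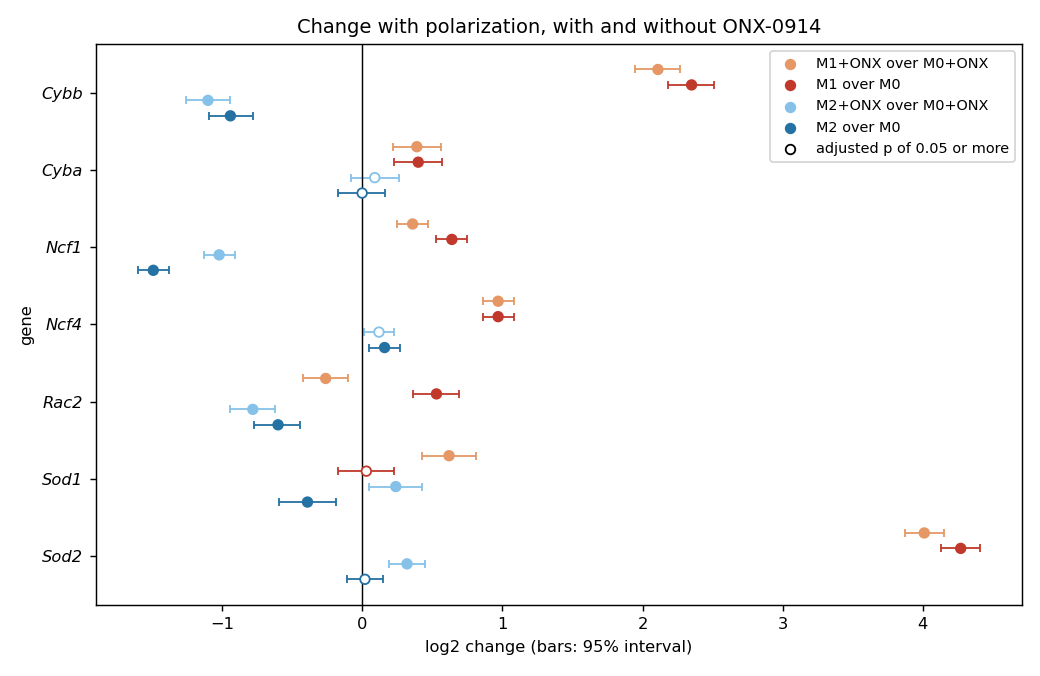
Change of the 7 genes with polarization, as log2 change with its 95% interval (horizontal axis), for M1 over M0 and M2 over M0, each with and without ONX-0914; filled points passed an adjusted p of 0.05. Cybb, Ncf4 and Sod2 lie right of 0 in M1 in both conditions, and Rac2 lies at -0.26 with ONX-0914 and at 0.53 without it.

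Rac2 was the oxidase gene with the largest response to the inhibitor. Rac2 (ENSMUSG00000033220, 15:78559167-78572783, minus strand) encodes the Rac GTPase of blood cells that switches the oxidase on. It had 181, 181, 202 and 196 CPM in M1+ONX, against 348, 458, 343 and 334 CPM in M1. The groups were far apart, and the level was 48.7% lower with the inhibitor (log2 change -0.96, SE 0.078, adjusted p = 8.69e-11). M2+ONX libraries had 134, 139.7, 135 and 121 CPM, against 158, 184, 164 and 171 CPM in M2, also without overlap (log2 change -0.35, SE 0.078, adjusted p = 0.000691). M0+ONX libraries had 247, 231, 214 and 218 CPM, against 258, 268, 260.2 and 244 CPM in M0, with overlap and no call (log2 change -0.18, 95% interval -0.34 to -0.02, adjusted p = 0.107). The effect in M1 was more negative than that in M0 (difference -0.79, SE 0.11, adjusted p = 6.73e-06) and than that in M2 (difference -0.61, SE 0.11, adjusted p = 0.000269).

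Polarization changed Rac2 in both directions. It was 1.44-fold higher in M1 than in M0 (log2 change 0.53, SE 0.077, adjusted p = 9.35e-07) and 0.658 times the M0 level in M2 (log2 change -0.6, SE 0.078, adjusted p = 4.6e-07). With ONX-0914 present, M1+ONX lay below M0+ONX instead (log2 change -0.26, SE 0.077, adjusted p = 0.00403). Leaving out M1 replicate 2, which held the 458 CPM, gave -0.85 for the inhibitor in M1 (adjusted p = 4.28e-14) and 0.41 for M1 over M0 (adjusted p = 7.98e-08). The differences of effects were then -0.67 between M1 and M0 (adjusted p = 5.08e-08) and -0.49 between M1 and M2 (adjusted p = 1.48e-05). Rac2 is also expressed in lymphocytes, and 10 of 11 B cell markers were tested. Their summed level was 40.8 to 45.6 CPM in M1+ONX and 80.3 to 93.2 CPM in M1, 61 to 68.7 CPM in M2+ONX and 116 to 124 CPM in M2, and 61.6 to 67.5 CPM in M0+ONX and 109 to 118 CPM in M0. Cd22 carried most of it, with 36.9 CPM in M1+ONX and 62.2 CPM in M1, and Ighm had 3.16 CPM in M1+ONX and 13.4 CPM in M1. Of the T and NK cell markers 1 of 12 was tested, and their summed level was 8.04 to 13.3 CPM in M1+ONX and 18.6 to 24.7 CPM in M1, of which Lck held 10.1 CPM in M1+ONX and 19.2 CPM in M1. Trac had 0.0595 CPM in M1+ONX and 0.0895 CPM in M1, and Ncr1 had no count in any library. The B cell sum was lower with the inhibitor in all 3 states without overlap. The T and NK cell sum was so in M1 and in M0 (1.92 to 2.75 CPM in M0+ONX, 3.4 to 3.82 CPM in M0). It overlapped in M2 (1.79 to 2.21 CPM in M2+ONX, 2.17 to 2.9 CPM in M2). The part of these sums in the Rac2 result was not tested.

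**Figure D4:**
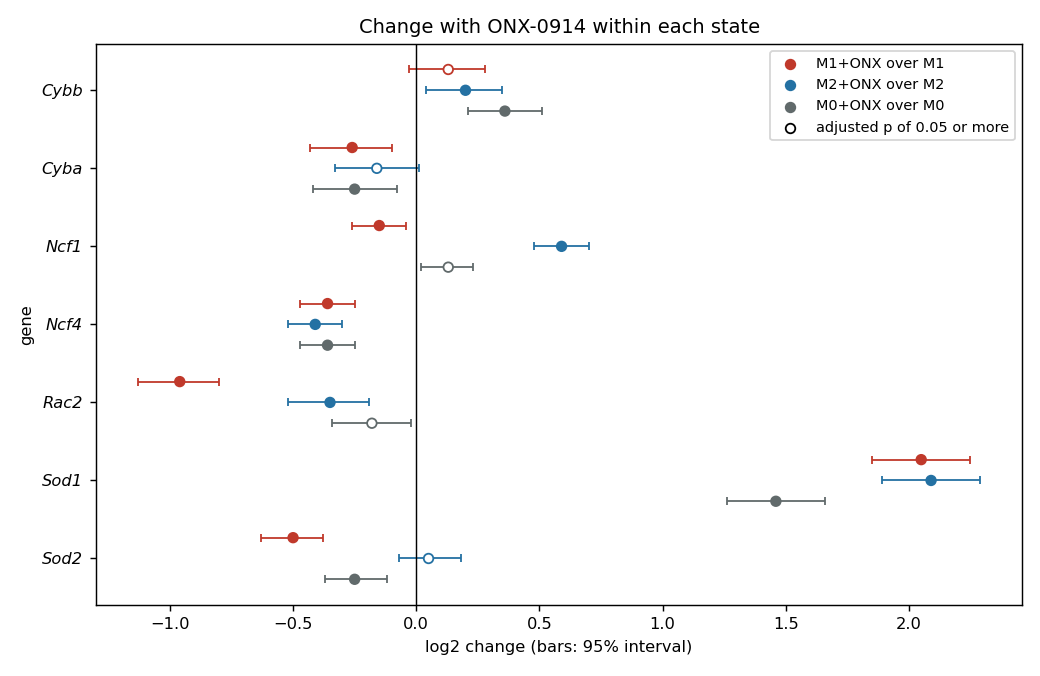
Change of the 7 genes with ONX-0914 within each state, as log2 change with its 95% interval (horizontal axis), for M1, M2 and M0 macrophages; filled points passed an adjusted p of 0.05. Sod1 lies between 1.46 and 2.09 in the 3 states, Ncf4 between -0.41 and -0.36, and Ncf1 on opposite sides of 0 in M1 and M2.

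Sod1 had the largest inhibitor response of the 7 genes, and it appeared in every state. Sod1 (ENSMUSG00000022982, 16:90220754-90226329, plus strand) encodes the copper and zinc dismutase of the cytosol. It had 268, 266, 255 and 246 CPM in M1+ONX, against 54.6, 85.1, 54.6 and 55.5 CPM in M1, a rise of 4.15-fold (log2 change 2.05, SE 0.095, adjusted p = 1.08e-15). In M2+ONX it had 199.9, 199, 193 and 204 CPM, against 46.2, 49.4, 43.9 and 46.9 CPM in M2, a rise of 4.27-fold (log2 change 2.09, SE 0.096, adjusted p = 8.26e-16). In M0+ONX it had 174, 166, 157 and 175 CPM, against 66, 60.2, 63 and 55.5 CPM in M0, a rise of 2.75-fold (log2 change 1.46, SE 0.093, adjusted p = 4.37e-12). Each library with inhibitor stood far above all libraries without it. The rise was larger in M1 than in M0 (difference 0.59, SE 0.13, adjusted p = 0.00157) and larger in M2 than in M0 (0.63, SE 0.13, adjusted p = 0.00258), while M1 and M2 gave -0.04 (95% interval -0.32 to 0.24). Leaving out M1 replicate 2, the rise in M1 was 2.24 (adjusted p = 1.63e-24), the difference between M1 and M0 0.78 (adjusted p = 9.2e-10), and that between M1 and M2 0.14 (adjusted p = 0.196), which turned its sign.

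Without inhibitor, polarization moved Sod1 little. M2 lay below M0 (log2 change -0.39, SE 0.095, adjusted p = 0.0017), and M1 did not pass the test (0.03, 95% interval -0.17 to 0.23, adjusted p = 0.802). That M1 value rests on replicate 2: without it the log2 change was -0.15 and was called (adjusted p = 0.0152). The 2 inhibitor-treated states lay above M0+ONX instead, by 0.62 for M1+ONX (adjusted p = 7.11e-07) and 0.24 for M2+ONX (adjusted p = 0.0322). The M2+ONX call was lost with DESeq2 size factors (0.2, adjusted p = 0.0792), with a filter of 1 CPM in 4 libraries (0.21, adjusted p = 0.0695) and without M0+ONX replicates 2 or 3 or M2+ONX replicates 1, 2 or 4 (adjusted p = 0.0549 to 0.0967). A processed pseudogene, Gm8566, is 97.8% identical to Sod1 over 465 bases, and reads could be split between them. Gm8566 had 6.76 ± 1.01 CPM in M1+ONX and 2.15 ± 0.928 CPM in M1, with 1735 counts over all libraries beside 61933 of Sod1.

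Sod2 followed the M1 state. Sod2 (ENSMUSG00000006818, 17:13006846-13040063, plus strand) encodes the manganese dismutase of mitochondria. It had 1525, 1679, 1491 and 1523 CPM in M1, against 80.9, 80.9, 81.9 and 78.9 CPM in M0, a rise of 19.3-fold and the widest difference among the 7 genes (log2 change 4.27, SE 0.068, adjusted p = 3.51e-27). M2 libraries had 80.4, 81, 79.7 and 85.9 CPM and overlapped with M0 (log2 change 0.02, 95% interval -0.11 to 0.15, adjusted p = 0.838). Stretches of 157 to 192 bases of Sod2 recur at 95% identity or more in 10 other genes, so a part of its reads is uncertain.

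With ONX-0914, Sod2 fell in M1 and M0 and was not called in M2. M1+ONX libraries had 1099.8, 1093, 1119 and 1075 CPM, all below M1, a level 29.4% lower (log2 change -0.5, SE 0.059, adjusted p = 8.11e-08). M0+ONX libraries had 73.4, 67.8, 63.6 and 67.3 CPM, below every M0 library (log2 change -0.25, SE 0.062, adjusted p = 0.00502). M2+ONX libraries had 76.7, 85.4, 79.5 and 98.1 CPM and overlapped with M2 (log2 change 0.05, 95% interval -0.07 to 0.18, adjusted p = 0.53). The effect in M1 differed from that in M2 by -0.56 (SE 0.085, adjusted p = 3.61e-05). The differences from M0 were closer to the threshold, at -0.26 for M1 (adjusted p = 0.0333) and 0.3 for M2 (adjusted p = 0.0371). The first was lost without any of M0 replicates 1, 2 or 4, M0+ONX replicates 1 or 2, or M1+ONX replicates 1, 2 or 4 (adjusted p = 0.0507 to 0.0871), with no count filter (-0.23, adjusted p = 0.109) and with the libraries of its 4 groups alone (-0.17, adjusted p = 0.137). The second was lost without M0 replicates 1, 2 or 3, M0+ONX replicates 2, 3 or 4, M2 replicates 1, 2 or 3, or M2+ONX replicates 2 or 4 (adjusted p = 0.0563 to 0.0917), and both were lost with DESeq2 size factors.

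The balance of the 2 dismutase messages differed with the inhibitor in every state. The ratio of Sod2 to Sod1 counts was 4.24 ± 0.16 in M1+ONX and 25.6 ± 3.93 in M1, 0.426 ± 0.0412 in M2+ONX and 1.76 ± 0.0871 in M2, and 0.405 ± 0.0155 in M0+ONX and 1.32 ± 0.0818 in M0 (SD, n = 4). In each state the 4 ratios with inhibitor lay below the 4 without it. Which dismutase had the higher level per length depended on the state and on the inhibitor. Per base of the principal transcript, Sod1 had 404 ± 16.3 RPKM and Sod2 187 ± 3.11 RPKM in M1+ONX, while Sod1 had 97.5 ± 23.6 RPKM and Sod2 265 ± 14.4 RPKM in M1. The order in M1+ONX depended on the length used: over all annotated exons Sod1 had 65.2 ± 2.63 RPKM and Sod2 109.6 ± 1.82 RPKM there.

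Across the 6 groups the order of levels differed from gene to gene. Cybb ran in the order M1+ONX, M1, M0+ONX, M0, M2+ONX, M2, where M1+ONX and M1 were the neighbours whose libraries overlapped. The order of Sod1 was M1+ONX, M2+ONX, M0+ONX, M1, M0, M2, with overlap between M1 and M0, so that the 3 groups with ONX-0914 came before the 3 without it. Sod2 ran M1, M1+ONX, M2+ONX, M2, M0, M0+ONX, with overlap between M2+ONX and M2 and between M2 and M0. Ncf1 ran M1, M1+ONX, M0+ONX, M0, M2+ONX, M2, with overlap between M0+ONX and M0. Ncf4 ran M1, M1+ONX, M2, M0, M2+ONX, M0+ONX, with overlap between the last neighbours. Rac2 ran M1, M0, M0+ONX, M1+ONX, M2, M2+ONX, with overlap between M0 and M0+ONX and between M1+ONX and M2. Cyba ran M1, M1+ONX, M0, M2, M2+ONX, M0+ONX, with overlap of M0 with both of its neighbours, and its group means spanned 0.64 on the log2 scale, the narrowest range of the 7.

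Counted together, most of the 7 genes were higher in M1. In M1 against M0, 6 rose and 0 fell, with a median log2 change of 0.64 beside -0.02 for all genes tested, of which 34.6% were called higher and 34.2% lower. Without M1 replicate 2, 6 rose and 1 fell, which was Sod1 (-0.15, adjusted p = 0.0152), beside 35.6% of genes called higher and 34.5% lower. All 7 were higher in M1 than in M2 (median 1.13, all genes -0.04), where 32.2% of genes were called higher and 34.4% lower. Without M1 replicate 2 the Cyba difference between M1 and M2 was 0.26 rather than 0.41, and that of Sod1 0.24 rather than 0.42, and both were still called. In M2 against M0, 1 rose and 4 fell (median -0.39, all genes 0.01), beside 18.7% of genes called higher and 17.5% lower. Under ONX-0914, 6 rose and 1 fell in M1+ONX against M0+ONX (34.4% of genes higher, 37.4% lower), and 2 rose and 3 fell in M2+ONX against M0+ONX (22.1% higher, 18.6% lower), where Ncf4 was also called without M1 replicate 2 (0.12, adjusted p = 0.0229).

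With ONX-0914, 1 gene rose and 5 fell in M1 (median -0.26, all genes -0.08), beside 16.6% of genes called higher and 27.7% lower. In M2, 3 rose and 2 fell (median 0.05, all genes 0; 17.6% higher, 18.8% lower), and in M0, 2 rose and 3 fell (median -0.18, all genes 0; 9.54% higher, 11.4% lower). Without M1 replicate 2 the calls were 1 up and 5 down in M1, with a median of -0.13. They were then 3 up and 3 down in M2, and 3 up and 4 down in M0. Ncf1 (adjusted p = 0.036) and Rac2 (0.00902) joined in M0 and Cyba (0.00317) in M2. The inhibitor effect differed between M1 and M0 for 4 of the 7 genes (19.3% of all genes; 5 of the 7 without M1 replicate 2, with Cybb), between M2 and M0 for 3 (6.17%) and between M1 and M2 for 3 (13.5%). Of the genes called in that last difference, 28.2% were positive with TMM scaling and 39.2% with DESeq2 size factors. Comparisons that use the same group share its 4 libraries.

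The partners and regulators of the oxidase were a list of 13 genes that were all tested. With the inhibitor, 2 rose and 8 fell in M1 (median log2 change -0.3, all genes -0.08), where 16.6% of all genes were called higher and 27.7% lower. In M2, 1 rose and 8 fell (median -0.29, all genes 0; 17.6% higher, 18.8% lower), and in M0, 1 rose and 7 fell (-0.19, all genes 0; 9.54% higher, 11.4% lower). Without M1 replicate 2 the counts in M2 were 2 up and 9 down. Prkcb, a protein kinase C that phosphorylates the organizer subunit, had 8.13 CPM in M1+ONX and 21.5 CPM in M1 (log2 change -1.41, adjusted p = 6.57e-13), and it fell in M2 (-0.79) and M0 (-0.51) as well. Arhgdia, which holds Rac proteins in the cytosol, fell in M1 (-0.57), M2 (-0.54) and M0 (-0.41). Vav1, an exchange factor that loads Rac with GTP, fell in M1 (-0.56) and M2 (-0.15), and Dock2, another Rac exchange factor, fell in M1 (-0.42), M2 (-0.55) and M0 (-0.3). Rac1, the Rac GTPase of most cells, fell in all 3 states (-0.19 in M1, -0.26 in M2, -0.19 in M0). Hvcn1, the proton channel that balances the charge of the oxidase, was singled out after its values were seen. It rose in M1 (0.3) and fell in M2 (-0.33) and M0 (-0.45), and the M1 effect differed from that in M0 (0.75, adjusted p = 7.48e-08).

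**Figure D5:**
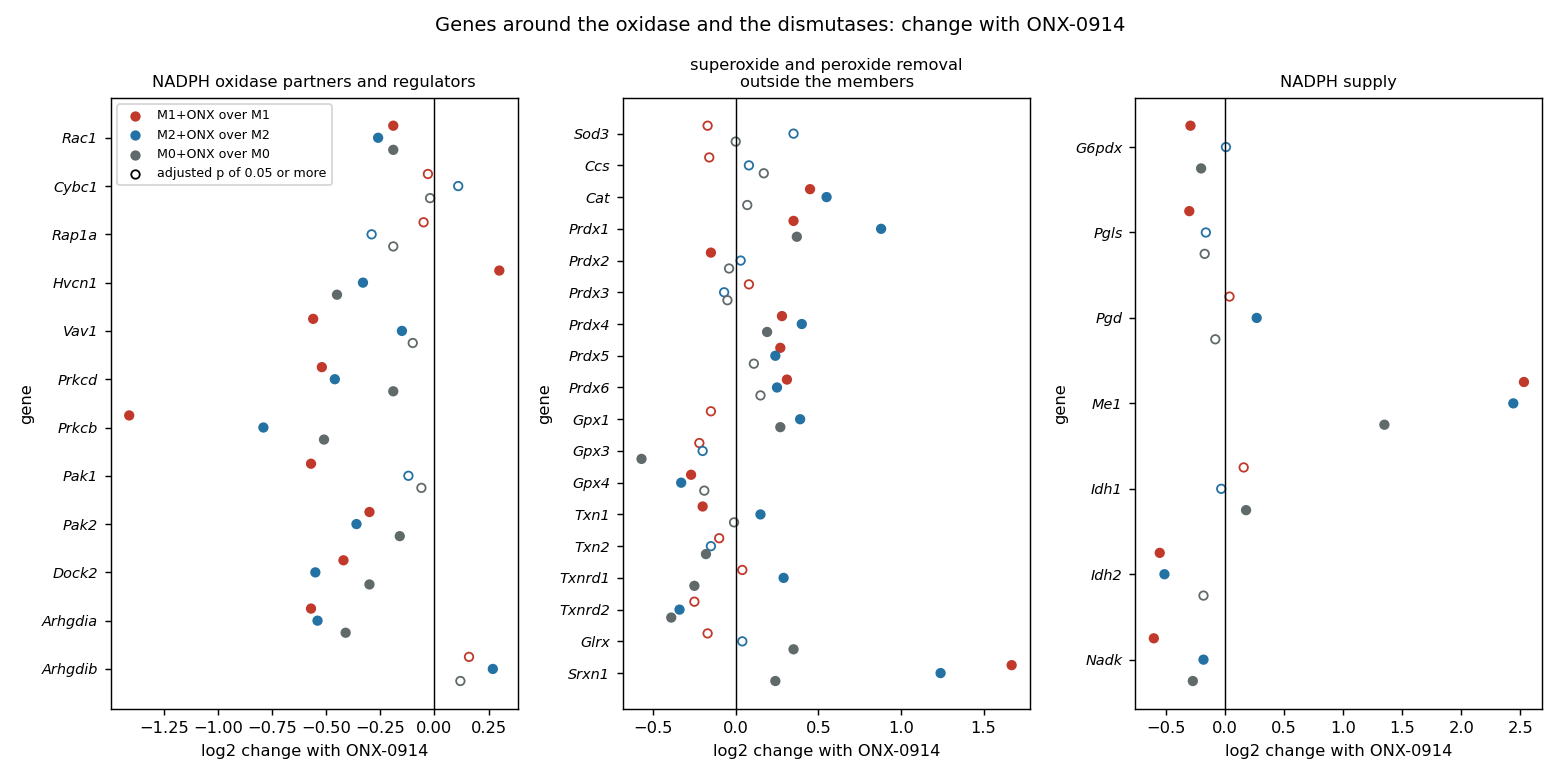
Change with ONX-0914 (log2, horizontal axis) of most of the listed genes around the oxidase and the dismutases, by list: oxidase partners and regulators, enzymes that remove superoxide and peroxide, and enzymes that supply NADPH; colours are the 3 states and filled points passed an adjusted p of 0.05. Prkcb lies lowest among the partners (-1.41 in M1), and Srxn1 (1.67) and Me1 (2.53) lie highest in M1.

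Polarization to M1 split the same 13 genes. Of these, 7 rose and 2 fell (median 0.15, all genes -0.02; 34.6% of all genes higher, 34.2% lower), among them Vav1 (1.36) and Cybc1, a chaperone that Cybb and Cyba need, with 111 CPM in M1 and 51.2 CPM in M0 (1.12, adjusted p = 1.02e-17). Prkcb fell to 21.5 CPM in M1, against 113 CPM in M0 (-2.4, adjusted p = 8.52e-21), and Dock2 fell by 1.33 on the log2 scale. In M2, 5 rose and 3 fell (median 0.12, all genes 0.01; 18.7% higher, 17.5% lower), with Hvcn1 (0.43) and Pak2 (0.36) higher and Vav1 (-0.51) lower.

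Of 9 genes of other NADPH oxidases, Nox1 passed the low-count filter and the other 8 did not. It passed through the M1 groups in which it was high, so its higher level there is a description and no support. Nox1 had 82 counts over the M1+ONX libraries, 52 over M1, 8 over M2+ONX, 0 over M2, 1 over M0+ONX and 2 over M0. The M1 to M0 ratio was 35.3 with an exact 95% counting interval of 9.29 to 299, which covers counting error only. For the M2 count of 0, a floor of 3 counts over the group was taken. The observed M1 level was 23.4 times the level of that floor, and the observed M2+ONX level 2.81 times. Both values leave out the counting error of the 52 and 8 counts, so they are not lower bounds. M2+ONX libraries ran from 0 to 0.248 CPM and overlapped with M2.

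Genes that remove superoxide and peroxide outside the 7 were 18, all tested. With ONX-0914, 6 rose and 3 fell in M1 (median -0.12, all genes -0.08), beside 16.6% of all genes higher and 27.7% lower. Without M1 replicate 2 the counts in M1 were 6 up and 2 down, and the median turned its sign to 0.01. In M2, 9 rose and 2 fell (median 0.2, all genes 0; 17.6% higher, 18.8% lower), and in M0, 5 rose and 4 fell (0.03, all genes 0; 9.54% higher, 11.4% lower). Srxn1, which repairs oxidized peroxiredoxins, had 615 CPM in M1+ONX and 193 CPM in M1 (1.67, adjusted p = 1.3e-19), and 301 CPM in M2+ONX and 128 CPM in M2 (1.24, adjusted p = 4.7e-17), with a smaller rise in M0 (0.24). Prdx1, a cytosolic peroxiredoxin, rose in M1 (0.35), M2 (0.88) and M0 (0.37), and the catalase gene Cat rose in M1 (0.45) and M2 (0.55). Sod3, the secreted dismutase, and Ccs, the copper chaperone of SOD1, passed the test in none of the 3 states (Ccs -0.16 in M1, 0.08 in M2 and 0.17 in M0). In M1 against M0, 10 rose and 6 fell (median 0.29, all genes -0.02; 34.6% higher, 34.2% lower), led by Prdx5 (2.62), Prdx1 with 4037 CPM in M1 and 1084 CPM in M0 (1.9), Sod3 (1.48) and, downward, Gpx1 (-1.32). In M2 against M0, 5 rose and 8 fell (median -0.1, all genes 0.01; 18.7% higher, 17.5% lower), with Glrx (1.17) and Sod3 (0.95) higher and Gpx3 (-0.68) and Prdx1 (-0.55) lower.

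The 7 enzymes that supply NADPH, the fuel of the oxidase, held 1 large inhibitor response. Me1, the cytosolic malic enzyme, had 34.2 CPM in M1+ONX and 5.91 CPM in M1 (2.53, adjusted p = 1.39e-15), 22.9 CPM in M2+ONX and 4.23 CPM in M2 (2.44), and 17.2 CPM in M0+ONX and 6.68 CPM in M0 (1.35). With Me1 included, 1 rose and 4 fell in M1 (16.6% of all genes higher, 27.7% lower), 2 rose and 2 fell in M2 (17.6% higher, 18.8% lower), and 2 rose and 2 fell in M0 (9.54% higher, 11.4% lower). Without M1 replicate 2 the counts were 2 up and 4 down in M1 and 2 up and 4 down in M0. Nadk, which makes NADP, fell in M1 (-0.6), M2 (-0.18) and M0 (-0.27). In M1 against M0, 3 rose and 3 fell (34.6% of all genes higher, 34.2% lower), from Idh1 (-3.14) and Idh2 (-1.47) to Nadk (0.85) and Pgd (0.69), and in M2 against M0, 1 rose and 4 fell (18.7% higher, 17.5% lower).

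Of 9 transcription factors known to act on oxidase genes, 7 rose and 0 fell in M1 against M0 (median 1.16, all genes -0.02; 34.6% of all genes higher, 34.2% lower). Irf1 (5.26), Nfkb1 (2.55) and Rela (1.58) were among them. With ONX-0914, 0 rose and 5 fell in M1 (median -0.23, all genes -0.08; 16.6% of all genes higher, 27.7% lower), among them Spi1, which encodes PU.1, with 414 CPM in M1+ONX and 578 CPM in M1 (-0.48, adjusted p = 1.07e-06), and Nfkb1 (-0.41). In M2 (17.6% of all genes higher, 18.8% lower) and in M0 (9.54% higher, 11.4% lower), 0 rose and 3 fell, and without M1 replicate 2 the counts were 1 up and 4 down in M2 and 0 up and 5 down in M0. In M2 against M0, 4 rose and 2 fell (18.7% higher, 17.5% lower).

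For each of 6 genes with a range of at least 1 on the log2 scale, the genes with the most similar pattern over the 6 groups were sought among 9414 genes, by the root mean square difference of centred mean log2 levels. Sod1 was closest to Me1 (0.14), then Phf1 and Chpf2 (0.2 each). Sod2 was close to Pnp (0.094) and Ddx58 (0.12), and Cybb to Asap3 (0.19), Flt4 (0.23) and Parp8 (0.27). Ncf1 was closest to Usp35 (0.14), Fth1 (0.22) and Ampd3 (0.23). Ncf4 was closest to Capza2 (0.047), Alg9 (0.062) and Ccnyl1 (0.068), and Rac2 to Wdr62 (0.09), Pde7b (0.11) and Dock8 (0.11). None of the 7 genes was among the nearest of another. These distances describe 6 group means that share libraries and depth.

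The markers of neutrophils, cells rich in this oxidase, had a summed level of 111 to 123 CPM in M1+ONX, 141 to 161 CPM in M1 and 49.1 to 58 CPM in M0, with 4 of 12 tested. The other groups had 72.5 to 93.2 CPM in M2+ONX, 69.7 to 71.9 CPM in M2 and 52.7 to 66.5 CPM in M0+ONX. Csf3r made up most of it, at 103 CPM in M1+ONX, 137 CPM in M1 and 44 CPM in M0. S100a8 had 7.3 CPM in M1+ONX, 8.57 CPM in M1 and 4.63 CPM in M0, and Mmp8 had 4.89 CPM in M1+ONX, 2.67 CPM in M1 and 3.17 CPM in M0. Cxcr2 had 0 CPM in M1+ONX and in M1, against 1.65 CPM in M0. Ltf was also lower in M1 (0.0173 CPM, against 0.417 CPM in M0), while Camp was higher (0.488 CPM in M1, 0 CPM in M0). S100a9, Ly6g and Retnlg had no count in any library. The part of this sum in the results was not tested.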

How the data were processed

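The authors deposited a table of raw counts per Ensembl gene, whole numbers without normalization, with 1 column per library. Per the submitters' processing notes, FastQC 0.11.9, cutadapt 2.8, Bowtie2 2.2.5 and Picard were used with the build mm10; the sources used here do not name the counting tool, annotation or strand setting. Symbols, positions and exon lengths came from GENCODE M21 (GRCm38), which named 54409 of 54532 features; the other 123 held 0.0282% of the counts.

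The analysis used edgeR 4.0.16 under R 4.3.3: filterByExpr by the 6 groups (14692 genes), TMM scaling, and a quasi-likelihood fit with 1 mean per group and 18 residual degrees of freedom, without a replicate block. There were 8 pairwise comparisons and 3 differences of inhibitor effects, with calls at an adjusted p (Benjamini-Hochberg) under 0.05. RPKM divides CPM by exon length in kilobases, over all exons or the principal transcript. The pipeline was checked on simulated data.

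The 7 genes, the gene lists, the marker lists and the comparisons were chosen with earlier results of these data known. Named genes are the 7 members, up to 4 called genes per list and comparison with the largest change, and Rac1, Cybc1, Sod3 and Ccs; exceptions are said to be so, and some genes that the rule takes are not reported here. Alternatives were DESeq2 1.42.0 size factors, its Wald test, limma 3.58.1 voom with quality weights, other count filters, the libraries of a comparison alone, a replicate block, and leaving out each library. List counts without M1 replicate 2 were added after the data were seen. Promoter windows came from RefSeq (GRCm38.p6). Pairing of libraries by replicate number was checked by correlating deviations from group means across genes. Over 60 pairs with the same number in different groups the mean was 0.0106, against -0.00355 for other pairs. A mean correlation cannot exclude pools shared between groups. The p-values rest on a spread between replicate libraries that was estimated for each gene over all 6 groups together, not within the groups compared alone. The labels call the replicates of a group independent.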

Additional observations from a re-analysis of the deposited data

Results flagged for a closer look

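Of 42 sets of 4 libraries (7 genes in 6 groups), 4 held a library far from the other 3 relative to their range, where chance flags about 1 in 20. They were Cyba in M1 replicate 2 (1544 CPM, others 1068 to 1095), Rac2 in M1 replicate 2 (458 CPM, others 334 to 348), Sod1 in M1 replicate 2 (85.1 CPM, others 54.6 to 55.5) and Ncf4 in M2+ONX replicate 4 (136 CPM, others 119.6 to 122). M1 replicate 2 accounts for 3 of the 4.

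Of 21 tests of a difference in inhibitor effect, 10 were called by edgeR. Between M1 and M0 they were Ncf1 (-0.28), Rac2 (-0.79), Sod1 (0.59) and Sod2 (-0.26). Between M2 and M0 they were Ncf1 (0.47), Sod1 (0.63) and Sod2 (0.3). Between M1 and M2 they were Ncf1 (-0.74), Rac2 (-0.61) and Sod2 (-0.56).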

How the results depend on the processing

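Each of 77 gene results (7 genes in 11 comparisons) was recomputed under 31 other settings, 24 of which left out 1 library. Of 2387 values, 2320 kept their direction and side of the threshold, 48 were no longer called, 17 became called and 2 reversed, and the changes touched 17 results. Sod1 in M1 against M0 reversed to -0.15 with voom and to -0.15 without M1 replicate 2, both called; it ran from -0.15 to 0.09 when 1 library was left out. For ONX-0914 in M0, 4622 genes were called with voom, against 3079. For the difference between M1 and M0, 2 of the 7 genes were called with no count filter and 2 when libraries of other groups were left out, against 4. For the difference between M2 and M0, 1847 genes were called with voom and 1590 when libraries of other groups were left out, against 907, and 660 to 1672 when 1 library was left out. The cause was not tested. The replicate block changed no member's call and gave 1421 genes higher and 1710 lower for ONX-0914 in M0, against 1401 and 1678. Of 24 libraries, 10 correlated best with their own number among the 4 replicate numbers, so a weak pairing is not excluded. Depth limits Nox1 and the genes under the filter, and the unknown strand setting limits Ncf1.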
